A study of Homo sapiens with 9 samples.

Results

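The 10 genes that encode transcription factors of B-cell and plasma-cell fate were followed across all 9 libraries of RIVA cells. They were chosen by symbol from the count table, which lists 60656 genes, and each of the 10 symbols matched exactly 1 row. By role they are PAX5, EBF1 and BACH2 (B-cell identity), BCL6, SPIB, IRF8 and POU2AF1 (germinal centre) and IRF4, PRDM1 and XBP1 (plasma-cell fate). RIVA is an established human lymphoma line of the ABC-DLBCL class (diffuse large B-cell lymphoma resembling activated B cells), which the study describes as carrying a BCL6 rearrangement and an activating NOTCH2 mutation. Cells were infected with the doxycycline-inducible plvx-Tetone vector, either empty (vector, whose own BCL10 is labelled wild type) or carrying BCL10 S136X, a truncation, or BCL10 R58Q, a substitution in the CARD domain. The infected cells keep their endogenous BCL10, and the sources do not say whether a line is 1 clone. All 3 groups received doxycycline for 24 h, at 200 ng/mL by the treatment protocol (the sample characteristics give the same figure per µL), and each group has 3 libraries that the study calls biological replicates. Where 3 values are given for a group they stand in the order of replicates 1 to 3. Total counts ranged from 28047713 to 33122267 per library.

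The names of the deposited columns carry a later date for all R58Q libraries than for the others, so the date and the R58Q construct cannot be told apart in any comparison with R58Q. BCL10 itself, the check of the labels, had 885 to 1268 counts in the vector libraries, 9838 to 14293 in S136X and 10117 to 10596 in R58Q. Counts per gene separate vector from the mutants here, but do not tell S136X from R58Q or mutant from wild-type BCL10. The B-cell markers MS4A1 (364 to 686 CPM), CD79A (554 to 888 CPM), CD79B (90.4 to 146 CPM) and CD22 (151 to 318 CPM) were present in all 9 libraries (CPM, the read count per unit of library size after TMM scaling). The 6 myeloid markers summed to between 0.273 and 0.589 CPM in any library, and of the 6 T and NK cell markers only CD8A had more than 9 counts in any library. The 6 stromal and epithelial markers summed to between 62.7 and 89.4 CPM, with EPCAM (32.9 to 53.6 CPM) the highest, in ranges that overlapped between all groups.

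A mature B cell keeps its identity through PAX5 and EBF1, which switch on B-cell genes and hold other lineages silent, while BACH2 restrains the step to the plasma cell. In the germinal centre BCL6 represses differentiation and activation genes, and IRF8, the ETS factor SPIB and the coactivator POU2AF1 (OCA-B) support the reaction. IRF4, a target of NF-kB, at high level turns a B cell toward the plasma cell, where PRDM1 (BLIMP-1) shuts off the B-cell programme and XBP1 drives secretion. BCL6 and PRDM1 repress each other, and ABC-DLBCL is known for high IRF4 and constitutive NF-kB activity.

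The promoters of 4 members that were called against vector, BACH2 not in the test used throughout but in some alternatives to it, are shown, because these factors regulate one another through short motifs. RefSeq promoter windows (GRCh38.p14, 250 bases before to 50 after 1 start site a gene) were found for 9 of the 10 genes, POU2AF1 being the one not matched, and 8 motifs were searched on both strands. Capitals mark the matches.
BCL6 promoter, chr3:187736452-187736751, - strand: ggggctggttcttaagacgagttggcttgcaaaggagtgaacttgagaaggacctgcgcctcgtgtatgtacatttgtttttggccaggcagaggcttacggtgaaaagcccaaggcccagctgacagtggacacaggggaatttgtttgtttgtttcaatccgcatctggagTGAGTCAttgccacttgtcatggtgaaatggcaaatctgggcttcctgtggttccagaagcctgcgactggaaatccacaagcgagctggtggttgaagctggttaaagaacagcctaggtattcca
IRF4 promoter, chr6:391502-391801, + strand: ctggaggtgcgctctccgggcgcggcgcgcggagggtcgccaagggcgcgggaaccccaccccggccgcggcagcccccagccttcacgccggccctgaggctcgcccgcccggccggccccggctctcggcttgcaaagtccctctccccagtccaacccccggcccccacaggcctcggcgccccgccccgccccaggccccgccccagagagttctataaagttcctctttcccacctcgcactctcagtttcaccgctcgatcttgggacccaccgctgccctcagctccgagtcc
EBF1 promoter, chr5:159097907-159098206, - strand: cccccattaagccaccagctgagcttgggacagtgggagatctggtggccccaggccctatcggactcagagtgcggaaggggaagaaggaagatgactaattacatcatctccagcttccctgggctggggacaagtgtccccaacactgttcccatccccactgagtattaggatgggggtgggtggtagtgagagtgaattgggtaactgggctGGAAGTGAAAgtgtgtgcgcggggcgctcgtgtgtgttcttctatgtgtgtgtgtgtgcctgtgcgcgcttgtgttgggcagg
BACH2 promoter, chr6:90296794-90297093, - strand: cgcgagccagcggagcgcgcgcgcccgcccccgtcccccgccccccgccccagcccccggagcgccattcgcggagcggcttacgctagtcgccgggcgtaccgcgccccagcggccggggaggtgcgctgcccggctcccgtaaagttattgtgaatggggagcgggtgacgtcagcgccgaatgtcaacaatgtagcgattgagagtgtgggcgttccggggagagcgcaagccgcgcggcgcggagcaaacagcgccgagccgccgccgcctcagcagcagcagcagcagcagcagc
The EBF1 window held 1 match of the ETS-IRF composite motif (GGAA and GAAA with 2 bases between them), which SPIB or PU.1 binds with IRF4 or IRF8, 33 to 24 bases before the start site, as did 2.82% of all 35116 RefSeq promoters of this length. The BCL6 window held 1 match of the AP-1 core (TGANTCA, also read by BACH2), 77 to 71 bases before the start site, as did 7.71% of all promoters. The IRF4 and BACH2 windows held 0 matches of the 8 motifs. The other motifs, with the share of all promoters that hold them, were the ISRE core (GAAA repeated after 2 bases, 3.57%), the octamer (ATGCAAAT, 1.77%), the BCL6 core (TTCNNNGAA, 7.66%), the EBF core (TCCC and GGGA with 2 bases between them, 1.21%), the unfolded protein response core (ACGTGG, 9.72%) and the NF-kB consensus (11.3%). Of the windows not shown, PAX5 held the unfolded protein response core, SPIB the NF-kB consensus and PRDM1 the AP-1 core, once each, and IRF8 and XBP1 held none. A match that overlapped one of another motif would have counted for both. The BCL6 start site used lies 9224 bases and the EBF1 start site 1960 bases downstream of the gene start in the count table. That of PRDM1 lies 105478 bases downstream, that of IRF8 3853, that of XBP1 520 and that of BACH2 65. Each window therefore shows only 1 of the places where transcription may begin, and a match or its absence holds for that window only.

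IRF4 and PAX5 were the most abundant of the 10 transcripts and PRDM1 the least abundant. Per kilobase of exon (GENCODE 29 union of exons), vector cells had 125 ± 10.1 CPM of IRF4, 109 ± 1.95 of PAX5 and 79.8 ± 5.8 of SPIB (SD, n = 3 here and below). These 3 ranges did not overlap. POU2AF1 (33.0 ± 1.95 CPM per kilobase), XBP1 (31.3 ± 10.6), BCL6 (29.2 ± 4.57) and IRF8 (27.4 ± 2.73) followed, and neighbours in this order overlapped between libraries. EBF1 (4.18 ± 0.618) and BACH2 (3.77 ± 0.469) overlapped each other, and PRDM1 (0.911 ± 0.0962) lay below every other member in every vector library. In both mutants the order changed, at BCL6, whose 57.2 ± 3.32 CPM per kilobase in S136X and 58 ± 6.77 in R58Q placed it above POU2AF1, XBP1 and IRF8 with no overlap, and at POU2AF1, whose 19.8 ± 4.7 in S136X and 19.95 ± 3.91 in R58Q lay below XBP1 and IRF8 with no overlap. In S136X cells BACH2 (1.97 ± 1.18) overlapped PRDM1 (1.08 ± 0.181), which it did not in vector.

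**Figure D1:**
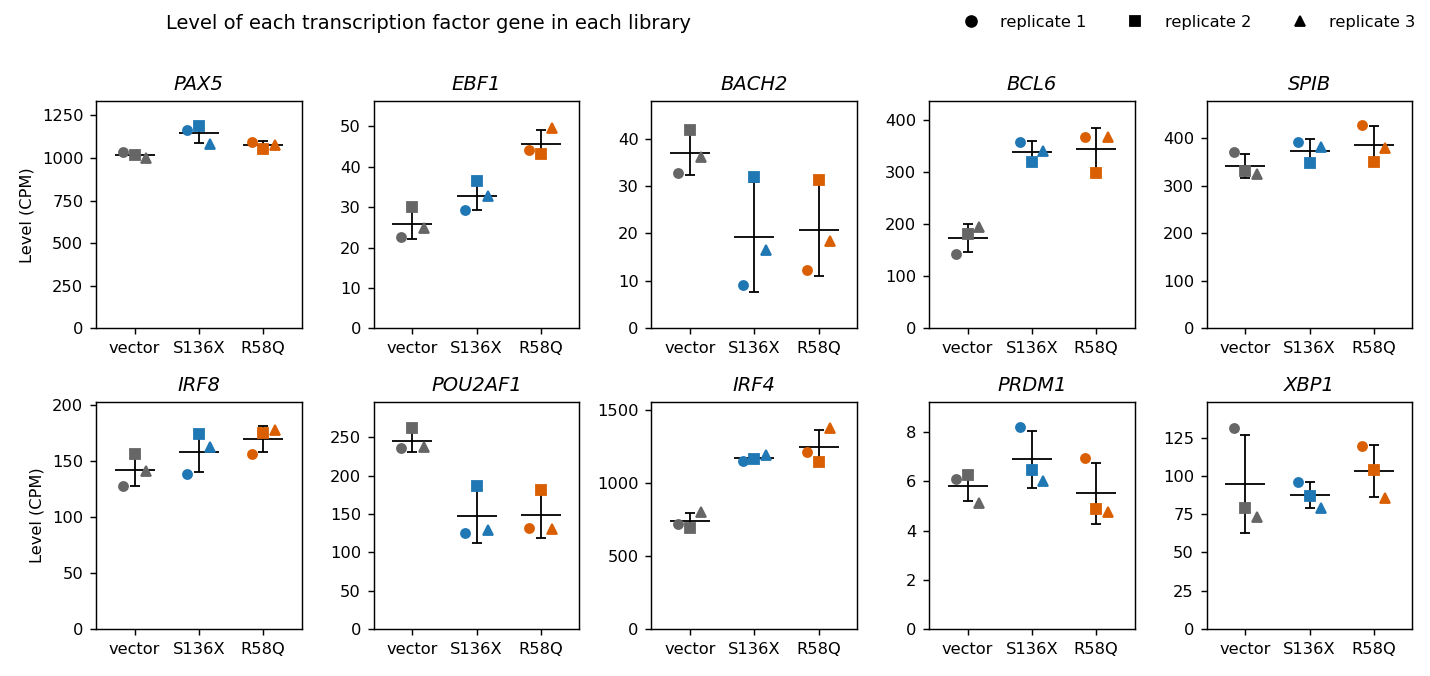
Level of each gene in CPM (vertical axis, from 0) in the vector, S136X and R58Q libraries; points are libraries, their shape the replicate number, and bars the mean ± SD of 3. BCL6 and IRF4 lie higher and POU2AF1 lower in all 6 mutant libraries than in the 3 vector libraries, while PRDM1 and XBP1 overlap.

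All 10 members passed the filter on low counts in each comparison. In S136X cells BCL6 and IRF4 rose and POU2AF1 fell, and in R58Q cells BCL6, IRF4 and EBF1 rose and POU2AF1 fell. In bulk RNA, fewer cells with a transcript and less of it per cell cannot be told apart. Calls required 1.5-fold or more and an adjusted p below 0.05, from the quasi-likelihood test of edgeR adjusted by Benjamini-Hochberg over every gene in the fit. By this rule 3 of 10 members were called in S136X (2 higher, 1 lower), where 3.87% of 15530 genes were (2.05% higher and 1.82% lower), and 4 of 10 in R58Q (3 higher, 1 lower), where 7.63% of 15435 genes were (4.09% higher and 3.54% lower). The split of all genes moved with the scaling, from 319 higher and 282 lower in S136X to 257 and 368 by total counts, and from 632 and 546 in R58Q to 549 and 741 by total counts or 542 and 772 by upper quartile, while that of the members stayed the same. Dropping the 1.5-fold condition left 3 and 4 members called, against 10.1% and 21% of all genes. The members were chosen with earlier results of these data known, so setting their shares beside those of all genes is a description only. Both comparisons use the same vector libraries. The mutant and vector libraries did not overlap for 5 members in S136X (31.3% of all genes) and 7 in R58Q (40.3% of all genes). Of the plasma-cell branch, IRF4 was called in both mutants and PRDM1 and XBP1 in neither, and no test was run between members.

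**Figure D2:**
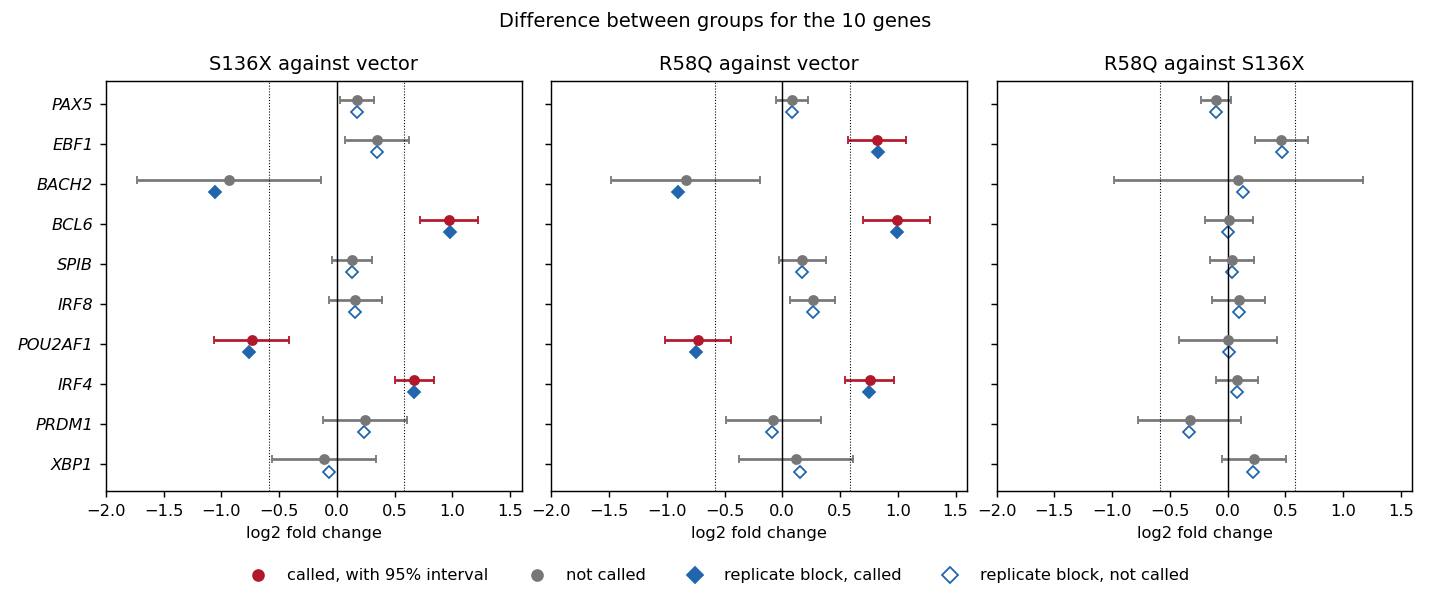
log2 fold change (horizontal axis) of each gene in the 3 comparisons; circles with 95% intervals are the test without the replicate number, diamonds the test with it as a block, and dotted lines mark 1.5-fold. BCL6, IRF4 and POU2AF1 are called against vector in both mutants and no gene is called between the mutants.

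BCL6 (ENSG00000113916.18, chromosome 3 of GRCh38, 187721377 to 187745725) encodes the repressor that holds germinal-centre B cells from differentiating. It had 143, 182 and 195 CPM in vector, 359, 319 and 341 in S136X and 368, 298 and 367 in R58Q. Every mutant library lay above every vector library. The log2 fold change was 0.97 in S136X (standard error 0.11, 1.96-fold, edgeR adjusted p = 0.00162) and 0.99 in R58Q (standard error 0.127, 1.98-fold, edgeR adjusted p = 0.00193). The call held in both mutants in all 14 alternative analyses, including those that each left out 1 library. Counts per gene do not separate the rearranged from the other BCL6 allele.

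IRF4 (ENSG00000137265.15, chromosome 6, 391752 to 411443) encodes the factor whose dose sets the choice between the germinal-centre and plasma-cell programmes. Its levels were 717, 690.3 and 805 CPM in vector, 1151, 1166 and 1197 in S136X and 1213, 1147 and 1382 in R58Q. Again the mutant libraries all exceeded the vector libraries, and the 3 S136X libraries lay close together, with a coefficient of variation of 1.98%. The log2 fold change was 0.67 in S136X (standard error 0.0744, 1.59-fold, edgeR adjusted p = 0.00153) and 0.76 in R58Q (standard error 0.0932, 1.69-fold, edgeR adjusted p = 0.00157), and both calls held in all 14 alternatives. Matched by replicate number, R58Q exceeded vector by 0.76, 0.73 and 0.78 on the log2 scale, a narrower spread than that of BCL6 (1.36, 0.71 and 0.91).

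POU2AF1 (ENSG00000110777.12, chromosome 11, 111352255 to 111455630) encodes the B-cell coactivator that the octamer factors recruit. It had 236, 262 and 237 CPM in vector, 125, 187 and 128 in S136X and 132, 181 and 131 in R58Q. All mutant libraries lay below all vector libraries, and replicate 2 was the highest in each group. POU2AF1 fell by 0.74 on the log2 scale in S136X (standard error 0.143, 1.67-fold lower, edgeR adjusted p = 0.0154) and by 0.73 in R58Q (standard error 0.125, 1.66-fold lower, edgeR adjusted p = 0.0061). In S136X the call was lost without S136X replicate 3 (edgeR adjusted p = 0.0636) and without vector replicate 2 (edgeR adjusted p = 0.0786), and the R58Q call held in all 14 alternatives.

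EBF1 (ENSG00000164330.17, chromosome 5, 158695916 to 159099916) encodes the factor that, before PAX5, commits progenitors to the B lineage. Its levels were 22.7, 30.1 and 24.8 CPM in vector, 29.3, 36.4 and 32.9 in S136X and 44.1, 43.3 and 49.7 in R58Q. S136X overlapped vector, and R58Q lay above both other groups. EBF1 was called in R58Q (log2 fold change 0.82, standard error 0.111, 1.77-fold, edgeR adjusted p = 0.00239) and not in S136X (0.35, standard error 0.121, edgeR adjusted p = 0.108). With the replicate number as a block the S136X value had an adjusted p of 0.00374, at 0.35 on the log2 scale still under 1.5-fold.

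BACH2 (ENSG00000112182.15, chromosome 6, 89926528 to 90296908) encodes the repressor of PRDM1 that holds B cells from the plasma-cell fate. It had 32.7, 41.8 and 36.1 CPM in vector, 9.23, 31.9 and 16.6 in S136X and 12.3, 31.3 and 18.5 in R58Q. Mutant libraries all lay below vector libraries, and within both mutants replicate 1 was the lowest and replicate 2 the highest. The log2 fold change was -0.94 in S136X (standard error 0.351, edgeR adjusted p = 0.13) and -0.84 in R58Q (standard error 0.282, edgeR adjusted p = 0.0689), so BACH2 was not called. Its standard error exceeded that of 87.8% and 80.8% of genes tested.

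The replicate numbers were taken to pair the libraries across groups, which the sample titles do not state. Deviations of libraries with the same number correlated over all genes (r from 0.143 to 0.626 in 9 pairs). Of 18 pairs with different numbers, 2 also had r above 0.1 (up to 0.169). With the replicate number as a block BACH2 was called in both mutants (log2 fold change -1.06 and -0.91, edgeR adjusted p = 0.00399 and 0.00185), and 4 of 10 members were then called in S136X and 5 of 10 in R58Q, where 6.53% and 10.7% of all genes were. Matched by number, BACH2 was lower than vector by 1.82, 0.39 and 1.12 on the log2 scale in S136X and by 1.41, 0.42 and 0.96 in R58Q. Without replicate 2 of the mutant, BACH2 was also called in each (-1.5 and -1.26, edgeR adjusted p = 0.00996 and 0.00485). Over the 9 libraries, which share 3 group means, BACH2 and POU2AF1 had a Pearson correlation of 0.91 in log2 CPM, and 0.901 after subtraction of the group means. This is a description of 9 libraries, taken as paired by number, and the part of the replicate number in it was not tested.

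**Figure D3:**
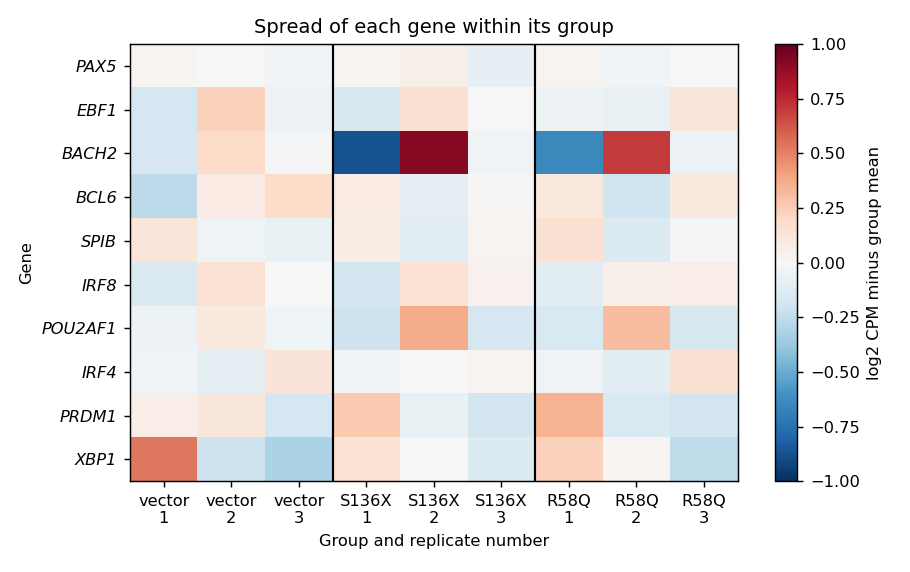
Each cell is the log2 CPM of 1 gene (rows) in 1 library (columns) minus the mean of its group, from -1 (blue) to 1 (red). BACH2 and POU2AF1 have replicate 2 above and replicate 1 below their group mean in all groups, and XBP1 stands high in vector replicate 1.

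PRDM1 and XBP1, which carry out the plasma-cell programme, were not called in either mutant. PRDM1 (ENSG00000057657.17, chromosome 6, 105993463 to 106109939) encodes BLIMP-1 and had 205, 205 and 174 counts in vector, 240, 209 and 171 in S136X and 206, 146 and 155 in R58Q. The groups overlapped throughout. Its log2 fold change was 0.24 in S136X (95% interval -0.12 to 0.61, edgeR adjusted p = 0.37) and -0.08 in R58Q (95% interval -0.49 to 0.33, edgeR adjusted p = 0.782). At this depth counting error alone was 6.45% to 8.28% of each PRDM1 value, and the interval in S136X reaches past 1.5-fold. The gene ATG5 overlaps the PRDM1 locus on the other strand with 421 to 558 counts per library, but 0 exon bases are shared in GENCODE 29.

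XBP1 (ENSG00000100219.16, chromosome 22, 28794555 to 28800597) encodes the factor whose spliced mRNA drives the secretory programme, and counts per gene do not tell the spliced from the unspliced form. It had 132, 79.0 and 73.3 CPM in vector, 96.4, 87.1 and 79.1 in S136X and 119.8, 103.9 and 85.9 in R58Q. Vector replicate 1 stood above all mutant libraries and the other two vector libraries below all of them. The log2 fold change was -0.11 in S136X (95% interval -0.56 to 0.34, edgeR adjusted p = 0.761) and 0.12 in R58Q (95% interval -0.37 to 0.62, edgeR adjusted p = 0.72). Without vector replicate 1 the values were 0.21 and 0.45 (edgeR adjusted p = 0.174 and 0.0491), so that the S136X value changed sign and the R58Q value stayed under 1.5-fold.

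PAX5, SPIB and IRF8 were called in neither mutant. PAX5 (chromosome 9, 36833269 to 37034268), the keeper of B-cell identity, ranged from 998 to 1035 CPM in vector, 1082 to 1190.4 in S136X and 1055 to 1096 in R58Q, so that all mutant libraries exceeded vector by a small margin (log2 fold change 0.17 and 0.08, edgeR adjusted p = 0.136 and 0.375). SPIB (chromosome 19, 50418938 to 50431314), a partner of the IRF factors on DNA, had overlapping groups (log2 fold change 0.13 and 0.17, edgeR adjusted p = 0.312 and 0.195). Of its longest transcript, 31.6% of 31-base words also occur in other genes, chiefly AC020909.1, which had 0 counts in every library, so the SPIB counts are uncertain. IRF8 (chromosome 16, 85899162 to 85922606), which supports the germinal-centre programme, ranged from 128 to 156 CPM in vector and 156 to 178 in R58Q (log2 fold change 0.26, 95% interval 0.065 to 0.46, edgeR adjusted p = 0.0632). With the block, edgeR adjusted p fell under 0.05 for PAX5 (0.0273) and IRF8 (0.0345) in S136X and for SPIB (0.0301) and IRF8 (0.00491) in R58Q, and none of these reached 1.5-fold. In all, 7 of 10 members had an adjusted p under 0.05 with the block in each mutant, where 24.7% and 35.2% of all genes did.

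Ratios of counts within a library do not depend on the scaling between libraries. IRF4 to IRF8 was 5.63, 4.43 and 5.72 in vector, 8.34, 6.72 and 7.39 in S136X and 7.77, 6.56 and 7.77 in R58Q. Every mutant library lay above every vector library. PRDM1 to BCL6, the ratio of a pair that repress each other, was 0.0426, 0.0345 and 0.0262 in vector, 0.0229, 0.0203 and 0.0176 in S136X and 0.0189, 0.0164 and 0.0129 in R58Q, and here all mutant libraries lay below vector. Of this pair, BCL6 was called higher in both mutants and PRDM1 in neither. IRF4 to BCL6 averaged 2.10 ± 0.207 on the log2 scale in vector, 1.79 ± 0.095 in S136X and 1.86 ± 0.122 in R58Q, with R58Q overlapping vector. XBP1 to PAX5 overlapped between all groups. No test was run on the ratios.

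**Figure D4:**
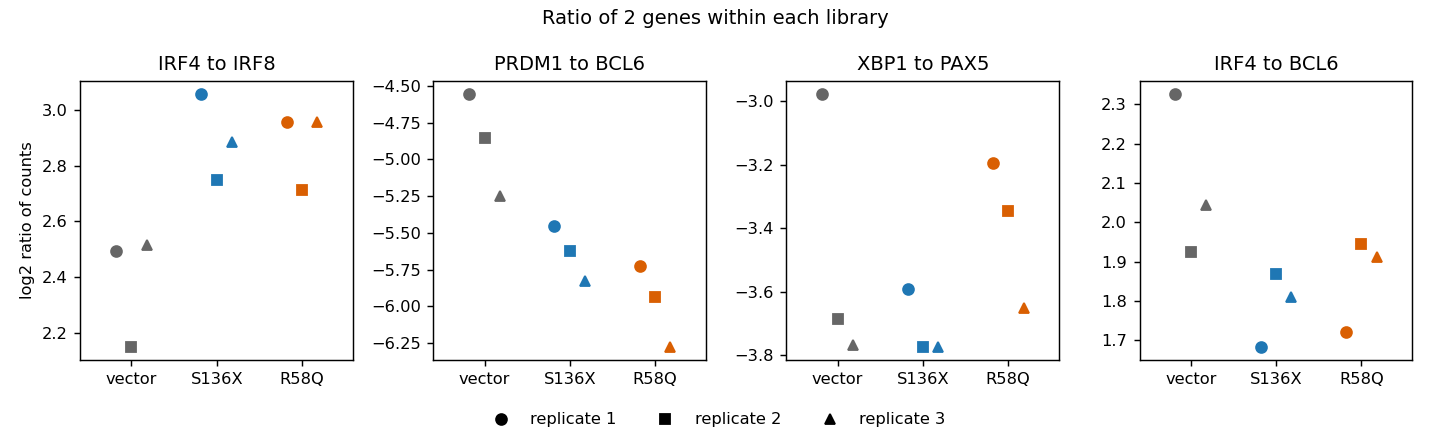
log2 ratio of the counts of 2 genes (vertical axis, a separate scale in each panel) in each library, by group, with the replicate number as the shape of the point. IRF4 to IRF8 lies higher and PRDM1 to BCL6 lower in all 6 mutant libraries than in the vector libraries.

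Between the mutants, which differ in construct and in date, 0 of 10 members were called, where 0.434% of 15195 genes were (0.27% higher and 0.165% lower), nor were any with the replicate block (2.94% of all genes) or without the 1.5-fold condition (0.533%). None was called with DESeq2 or limma-voom either, and 1 member, EBF1, had an unadjusted p under 0.05 in edgeR. EBF1 was also the only member whose R58Q and S136X libraries did not overlap (17% of all genes), with a log2 fold change of 0.47 for R58Q against S136X (95% interval 0.24 to 0.70, edgeR adjusted p = 0.106). With the block 3 of 10 members, EBF1, XBP1 and PRDM1, had an adjusted p under 0.05 at less than 1.5-fold, where 14.6% of all genes did. BCL6 (0.01, 95% interval -0.20 to 0.22) and IRF4 (0.08, 95% interval -0.10 to 0.26) had intervals within 1.5-fold, while that of BACH2 (0.09, 95% interval -0.98 to 1.17) spanned more than 1.5-fold both ways.

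Genes around these factors were read from 6 lists, chosen with earlier results of these data known. Each is given by the genes called and by its median, beside a median log2 fold change over all genes of -0.02 in S136X and -0.03 in R58Q. In the B-cell identity list, 23 of 24 genes were tested, with 2 higher and 3 lower in S136X (median -0.18) and 2 higher and 1 lower in R58Q (median -0.24, and 2 higher and 3 lower with either other scaling). These are 21.7% and 13% of the genes tested, against 3.87% and 7.63% of all genes. HLA-DRA, a chain of MHC class II, rose by 1.24 and 1.59 on the log2 scale in S136X and R58Q, and CIITA, the coactivator of MHC class II genes, by 1.01 and 1.23. RALGPS2 fell by 0.73 and 0.66. VPREB3, a partner of the immature B-cell receptor, and FCER2 (CD23) fell in S136X (-0.62 and -0.74) and had -0.19 and -0.58 in R58Q, where FCER2 was called with the replicate block. Neither was called between the mutants (edgeR adjusted p = 0.308 and 0.877). The adjusted p of the calls against vector lay between 8.41e-05 and 0.0161 (edgeR). In S136X the VPREB3 call was lost without S136X replicate 3 and that of RALGPS2 without S136X replicate 3 or vector replicate 2, and in R58Q that of RALGPS2 without R58Q replicate 1.

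In the germinal-centre list, 19 of 23 genes were tested and 2 were lower in each mutant (median -0.13 in S136X and -0.12 in R58Q). These are 10.5% of the genes tested in each mutant, against 3.87% of all genes in S136X (1.82% lower). In R58Q this share was near the 7.63% of all genes. MME (CD10), the surface peptidase that marks germinal-centre cells, fell from 21.8 CPM in vector to 13.5 in S136X and 12.9 in R58Q (log2 fold change -0.69 and -0.75, edgeR adjusted p = 0.0478 and 0.0225). CD27, a marker of memory and germinal-centre B cells, fell from 78.4 CPM to 40.7 and 48.5 (-0.95 and -0.70, edgeR adjusted p = 0.00441 and 0.00408). No gene of this list was called higher without the replicate block, while RGS13 was with it in R58Q and GCSAM was called lower with it in S136X (both named after their values were seen). The MME call was lost in S136X without any 1 library except vector replicate 3, and also with limma-voom. In R58Q it was lost without R58Q replicate 2 or 3 or vector replicate 1 or 2. The CD27 call was lost in R58Q without vector replicate 1.

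The plasma-cell and secretory list had all 30 genes tested, with 2 higher and 1 lower in S136X (median 0.05) and 3 higher and 0 lower in R58Q (median 0.23). The R58Q count became 5 higher and 0 lower with the replicate block, 3 higher and 2 lower by total counts and 2 higher and 2 lower by upper quartile, and that of S136X 1 higher and 1 lower by total counts. The share called was 10% in each mutant, against 3.87% of all genes in S136X, and in R58Q near the 7.63% of all genes. SLAMF7, a surface receptor of plasma and NK cells, rose from 12.4 CPM in vector to 70.2 in S136X and 101.5 in R58Q (log2 fold change 2.497 and 3.03, edgeR adjusted p = 0.000478 and 0.000139). HERPUD1, a component of protein disposal at the endoplasmic reticulum, rose by 0.64 and 0.65, and SEC61B, a subunit of the translocon, rose in R58Q by 0.68 (0.58 in S136X, just under 1.5-fold). TNFRSF17 (BCMA), the survival receptor of plasma cells, fell in S136X by 0.86 and had -0.54 in R58Q. The SEC61B call was lost without R58Q replicate 1, and the HERPUD1 call in S136X with total-count scaling and in R58Q with upper-quartile scaling. The remaining 26 genes of the list were called in neither mutant without the block. Among them SDC1 (CD138), the surface marker of plasma cells, had -0.22 and -0.28 (edgeR adjusted p = 0.335 and 0.155). MZB1, a chaperone of antibody assembly, had -0.32 and -0.32 (edgeR adjusted p = 0.0294 and 0.036). SEC11C went the other way, at 0.44 and 0.47 (edgeR adjusted p = 0.00334 and 0.00263). These genes were named after their values were seen. The list median lay above 0 in both mutants. With the block HSPA5 and SDF2L1 (both 0.58 without it) were also called higher in R58Q, and 0 genes of the list lower.

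Of genes known to be repressed by BCL6, 21 of 23 were tested, and 8 were higher and 1 lower in S136X (42.9% called, median 0.41), with 10 higher and 1 lower in R58Q (52.4% called, median 0.79). Of all genes, 3.87% were called in S136X (2.05% higher) and 7.63% in R58Q (4.09% higher). Because the list was chosen with earlier results of these data known, this contrast is a description and not a test. CD80, a ligand of CD28, rose from 4.76 CPM to 21.4 in S136X and 50.2 in R58Q, and was the 1 gene of this list called between the mutants (log2 fold change 1.22, edgeR adjusted p = 0.0138), where 4 were called with the replicate block. Between the mutants 0.434% of all genes were called, and 2.94% with the block. CD44, an adhesion receptor, rose from 129 CPM to 489.9 and 915. S1PR1, a receptor for egress from lymphoid tissue, fell by 1.17 and 1.01 on the log2 scale. BCL6 rose in the same libraries.

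Of the partner factors, 28 of 30 genes were tested, with 1 higher and 4 lower in S136X (median -0.12) and 1 higher and 3 lower in R58Q (median -0.16, and 5 lower with the replicate block). These are 17.9% and 14.3% of the genes tested, against 3.87% and 7.63% of all genes (1.82% and 3.54% lower). BATF, which binds DNA with IRF4, rose from 65.8 CPM in vector to 130.2 and 127.5 (log2 fold change 0.99 and 0.95, edgeR adjusted p = 0.0118 and 0.0119). KLF2, a factor of resting lymphocytes, fell from 14.6 CPM to 5.62 and 5.18 (-1.38 and -1.502), and IKZF2 (Helios) from 55.7 CPM to 31.1 and 33.9. ID3, an inhibitor of the E proteins, fell in S136X by 0.87 (edgeR adjusted p = 0.0499) and had -0.54 in R58Q, where it was called with the block. Of the other IRF genes 6 of 7 were tested, and IRF1 and IRF7, both interferon-responsive, rose in each mutant (IRF1 by 0.79 and 2.03, IRF7 by 1.25 and 1.76). They are 33.3% of the genes tested in this list. IRF7 is also in the list of genes repressed by BCL6. In S136X the ID3 call was lost without any 1 library except S136X replicate 2, that of IRF1 without any except S136X replicate 1, and that of IRF7 without S136X replicate 3, vector replicate 1 or vector replicate 2. There the ID3 call was also lost with DESeq2 and in 1 fit of all 9 libraries. That of IRF1 was also lost with limma-voom and with upper-quartile or total-count scaling. The BATF call was lost without vector replicate 2 in both mutants and the IKZF2 call in R58Q without R58Q replicate 1.

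**Figure D5:**
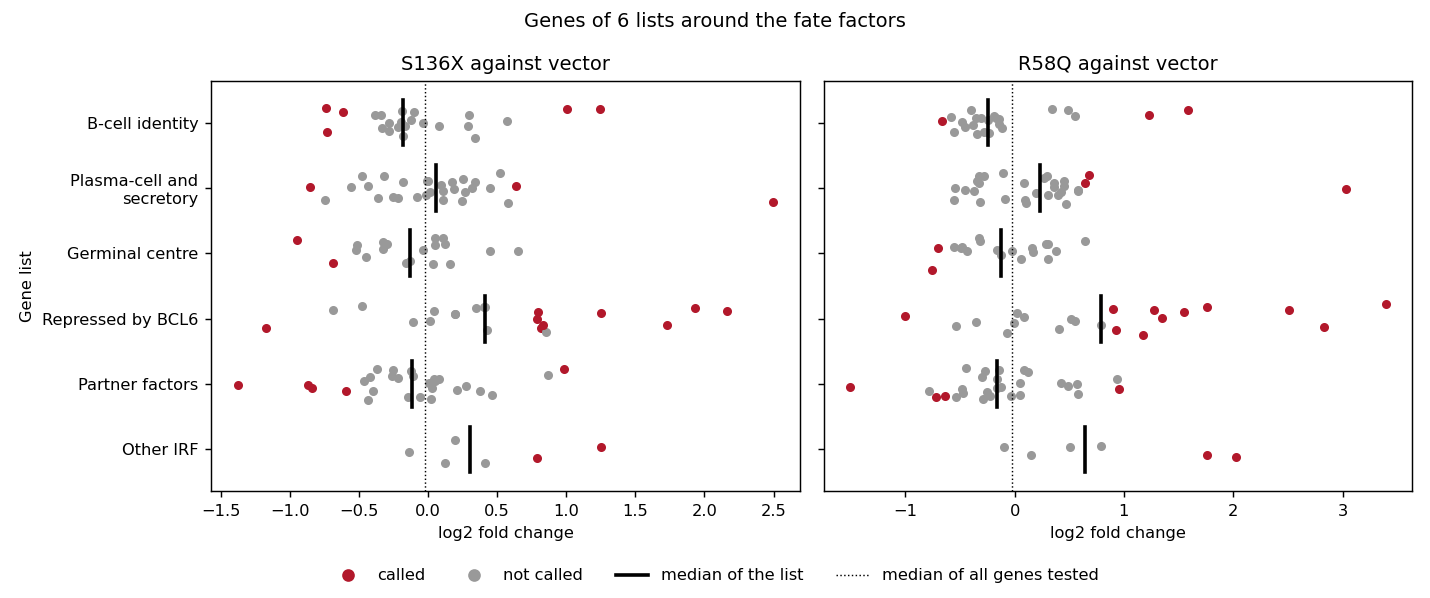
log2 fold change against vector (horizontal axis) of every tested gene of the 6 lists (rows, points spread vertically for visibility); red points are called, thick bars are list medians and the dotted line is the median of all genes. The list of genes repressed by BCL6 has its median at 0.41 in S136X and 0.79 in R58Q, and the germinal-centre list has no called gene above 0.

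The genes whose log2 CPM followed each called member most closely over the 9 libraries were sought among 9423 genes. They were DNAJC2 and DTX4 for BCL6 (Pearson r = 0.989 and 0.985), IL21R and GCNT2 for IRF4 (0.992 for both), RALGPS2 and SCAMP5 for POU2AF1 (0.992 and 0.991) and MYCBP2 and EAF2 for EBF1 (0.986 and 0.98). These correlations are descriptive, since the 9 points fall into 3 groups and were taken as paired by replicate number. Between members, BCL6 and IRF4 had r = 0.961, and 0.537 after subtraction of the group means.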

How the data were processed

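RNA-seq libraries (poly(A) selected, single-end) of 3 groups of 3 were analysed. The authors deposited read counts per gene, made with cutadapt, STAR and Picard on hg38 per the labels (roles and versions not given in the sources used here, nor the counting program, the annotation or whether counting used strand), and beside them a normalized signal, the counts divided by 1 factor per library, which the authors deposited and which was not used. Of the 60656 genes, 96.3% are in GENCODE 29 (GRCh38), 99.9% of these at overlapping positions.

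Each pair of groups was fitted on its 6 libraries with edgeR 4.0.16 (R 4.3.3; limma 3.58.1): filterByExpr (minimum count 10, minimum total 15), TMM and F tests by quasi-likelihood, adjusted by Benjamini-Hochberg over the genes in each fit. Standard errors are the log2 fold change over the root of F. Levels are CPM with TMM factors over 9 libraries, and log2 CPM uses a prior count of 2. Libraries with the same replicate number deviated together (9 of 9 correlations above 0.1, 0.143 to 0.626), so the number was taken to pair them. Of the correlations between different numbers, 2 of 18 were also above 0.1 (up to 0.169).

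Also tried were limma-voom and DESeq2 1.42.0, scaling by upper quartile or total count, either no filter or a stricter one (10 counts or more in each library), 1 fit of all 9 libraries, the replicate block, no fold threshold and each library left out. The edgeR test, its replicate block, limma-voom and DESeq2 were run on simulated counts for S136X against vector, drawn without a replicate effect. That simulation does not test the block on paired libraries. Members and lists were chosen with earlier results of these data known. Named from each list were the 3 called genes with the highest and the 3 with the lowest mean change over both mutants. For each called member the 2 genes most correlated with it were named. SDC1, MZB1, SEC11C, HSPA5 and SDF2L1 were named in addition, after their values were seen. Some items that the rule takes are not reported here. The median total was 32185418 counts, and counting errors cover counting only.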

Additional observations from a re-analysis of the deposited data

Results flagged for a closer look

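Of the 10 members, 3 differed between R58Q and S136X at an adjusted p under 0.05 when the replicate number was a block in edgeR's quasi-likelihood test, none of them by 1.5-fold and none without the block. EBF1 was higher in R58Q (log2 fold change 0.47, edgeR adjusted p = 4.23e-05, and 0.106 without the block), in 3 of 3 pairs. XBP1 was higher in R58Q (0.22, edgeR adjusted p = 0.00322, and 0.564 without the block), in 3 of 3 pairs. PRDM1 was lower in R58Q (-0.33, edgeR adjusted p = 0.0345, and 0.619 without the block), in 3 of 3 pairs. Of all genes, 14.6% passed this p with the block. The pairs rest on the replicate number, which was taken to pair the libraries though the sample titles do not state it. The later date of the R58Q columns cannot be told apart from the construct in these values.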

How the results depend on the processing

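Against vector, BCL6 and IRF4 in both mutants and EBF1 and POU2AF1 in R58Q kept their call in all 14 alternatives, and the number of members called ranged from 2 to 4 in S136X and 4 to 5 in R58Q. The replicate block raised these numbers from 3 to 4 and from 4 to 5 by adding BACH2 (-1.06 and -0.91), which was also called with no filter (-0.94 and -0.82, edgeR adjusted p = 0.000205 and 0.000537) and, in R58Q, with limma-voom (-0.93, adjusted p = 0.0397), and it changed no other call among the members. Over its 14 alternatives the adjusted p of BACH2 ran from 0.000205 to 0.332 in S136X and from 0.000537 to 0.203 in R58Q; the cause was not tested. Some values near 0 changed sign when 1 library was left out: against vector, XBP1 ran from -0.25 to 0.21 in S136X and from -0.0305 to 0.45 in R58Q, and PRDM1 from -0.26 to 0.0219 in R58Q. For R58Q against S136X the ranges were -0.33 to 0.67 for BACH2, -0.17 to 0.22 for POU2AF1, -0.0407 to 0.11 for BCL6, -0.0384 to 0.10 for SPIB and -0.0020 to 0.14 for IRF4, and POU2AF1 was -0.00099 with DESeq2 and -0.015 with upper-quartile normalization, BCL6 -0.0078 with the latter.

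Of the list genes taken by the naming rule and called, 20 in S136X and 17 in R58Q, 11 and 10 were called in all alternatives. Counts of list genes that moved by over 1.5 times were, in S136X, germinal centre 2 (1 with limma-voom) and other IRF 2 (1 with limma-voom, upper-quartile or total-count scaling). In R58Q they were B-cell identity 3 (5 with either other scaling, 2 higher and 3 lower) and plasma-cell and secretory 3 (5, all higher, with the replicate block, limma-voom or either other filter, and 3 higher and 2 lower by total counts). Between the mutants they were genes repressed by BCL6, 1 (2 with DESeq2, without filter, by total counts or with all 9 libraries, 4 with the block) and other IRF 0 (1 with DESeq2, no filter, all 9 libraries or the block). With 1 library left out, S136X counts ran from 3 to 6 for B-cell identity, 3 to 5 for plasma-cell and secretory, 1 to 2 for germinal centre, 2 to 5 for partner factors and 0 to 2 for other IRF, and R58Q counts from 3 to 6, 3 to 7, 1 to 2, 3 to 6 and 2 to 3. For genes repressed by BCL6 they ran from 6 to 10 in S136X and from 10 to 13 in R58Q. Between the mutants, counts with 1 library left out ran from 0 to 2 for genes repressed by BCL6 and 0 to 1 for B-cell identity. The ratio of XBP1 to PAX5 rested on vector replicate 1, without which S136X minus vector went from -0.24 to 0.01 and R58Q minus vector from 0.08 to 0.33. PRDM1, at 146 to 240 counts, is the member most limited by depth.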
